A study of Bos taurus with 16 samples.

Results

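The genes described are the CC chemokines of the bovine array, which were found as the probes whose gene name, or whose symbol in brackets in the probe description, was CCL followed by a number. The rule gave 16 probes for 16 genes (CCL2, CCL4, CCL5, CCL8, CCL14, CCL16, CCL17, CCL19, CCL20, CCL21, CCL22, CCL23, CCL24, CCL25, CCL26 and CCL28) out of 21475 probes on the array. Of these 16 probes, 13 were bright enough to be tested, and CCL20, CCL21 and CCL25 were not. Another 4 probes have close relatives as their targets but have other names in the files. They are a pair of probes for CCL3L1, 1 for CCL11 (eotaxin) and 1 for LOC508933, a CCL27-like gene, and they are not counted among the members.

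CD14+ cells were sorted from the interplacentomal endometrium and from the heart blood of 4 pregnant cows collected at an abattoir, at days 164, 239, 242 and 248 of pregnancy (animals 1 to 4). CD14 is the surface receptor by which monocytes and macrophages are recognized, and each animal gave 1 preparation of such cells from each tissue. No animal was treated and all were pregnant, so the comparison is between tissues within an animal, and animal and day of pregnancy cannot be told apart. By the labels, the endometrial cells were less pure than the blood cells, and the RNA was amplified before it was labeled. The 2 tissues of an animal were hybridized together on an array, each with its own dye. Every animal had 2 arrays, with the dyes swapped in animals 1, 2 and 4 and the endometrium in Cy5 on both arrays of animal 3.

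CC chemokines are small secreted proteins, named for a pair of adjacent cysteines, that attract leukocytes by binding G protein-coupled receptors of the CCR family. Monocytes and macrophages make many of them and also respond to them. CCL2 and CCL8 attract monocytes through CCR2 and related receptors, CCL24 and CCL26 attract eosinophils through CCR3, and CCL17 and CCL22 attract T helper 2 and regulatory T cells through CCR4. CCL17, CCL22 and CCL24 are also known as products of macrophages activated by interleukin 4, the alternative pathway of activation.

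The oligonucleotide probes of the genes on which the results turn are shown next. Each line gives 30 of the 60 bases of a probe, 5′ to 3′, and capitals mark the longest run of bases that the probe shares with a probe of any other CC chemokine.
CCL2, probe A_73_112988: gcaagaatgatTAATGCAAgaacttttggt
CCL8, probe A_73_116397: ctcctgtaagtGGATGTGTGctatgtagta
CCL24, probe A_73_114373: tcatttgtctgTCAAGTGTagagggacaca
CCL22, probe A_73_113801: ctcctAGAGCCCAagggcatttgtccactg
CCL17, probe A_73_114267: gcaatgaaataCTTGCAGAaacagaagaag
CCL14, probe A_73_116333: AGCTTCAcaaggaaagcttgattttgcagc
CCL5, probe A_73_100958: gcactggcaaataagaaGAAATCAGctgtt
CCL4, probe A_73_106624: tgcaactgattTCAAGTGTttttgtaataa
Over the 16 members the longest shared run was 7 to 9 bases of 60, the longest being the 9 bases that CCL8 shared with CCL19. Probes were compared with each other and not with transcripts, so whether a probe binds the transcript of a relative was not tested. The files list these probes as unmapped, so their places in a genome, and in exons or untranslated regions, are not given here.

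Values are log2 normalized intensities, which can be compared between samples of a probe but not between probes. The log2 ratio is that of endometrium over blood within an animal, so a value of 1 is a 2-fold higher intensity in endometrium. A probe with a fold change over 2 passed the unadjusted threshold where its limma p was 0.05 or less, and was called where the Benjamini-Hochberg adjusted p over all 16653 tested probes was 0.05 or less. A probe was also described by whether all 4 animals went in the same direction. An exact 2-sided permutation test within 4 animals cannot give a p under 0.125. RNA was measured in bulk, so fewer cells of a type and less RNA per cell cannot be told apart.

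Of the 13 CC chemokines tested, 5 passed the unadjusted threshold with more RNA in endometrial cells, namely CCL2, CCL8, CCL14, CCL22 and CCL24, against 5.28% of all tested probes. None passed it in the direction of blood, which 5.11% of all probes did. No CC chemokine was called after adjustment in limma, against 0.0661% of all probes called higher in endometrium. With the scanner's processed signal, which is also what the authors' value table rests on, 2 of the 13 were called higher in endometrium, CCL22 and CCL24, against 1.23% of all probes, and 0 were called higher in blood, against 0.12%. CCL22 entered the test only through the endometrium, since just 2 of its 8 blood channels were well above background, so the counts are descriptions of the list and not evidence about it. The median log2 ratio of the 13 probes was 1.24, the value of CCL26, with a range from -0.83 to 3.02, and that of all tested probes was -0.02.

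**Figure D1:**
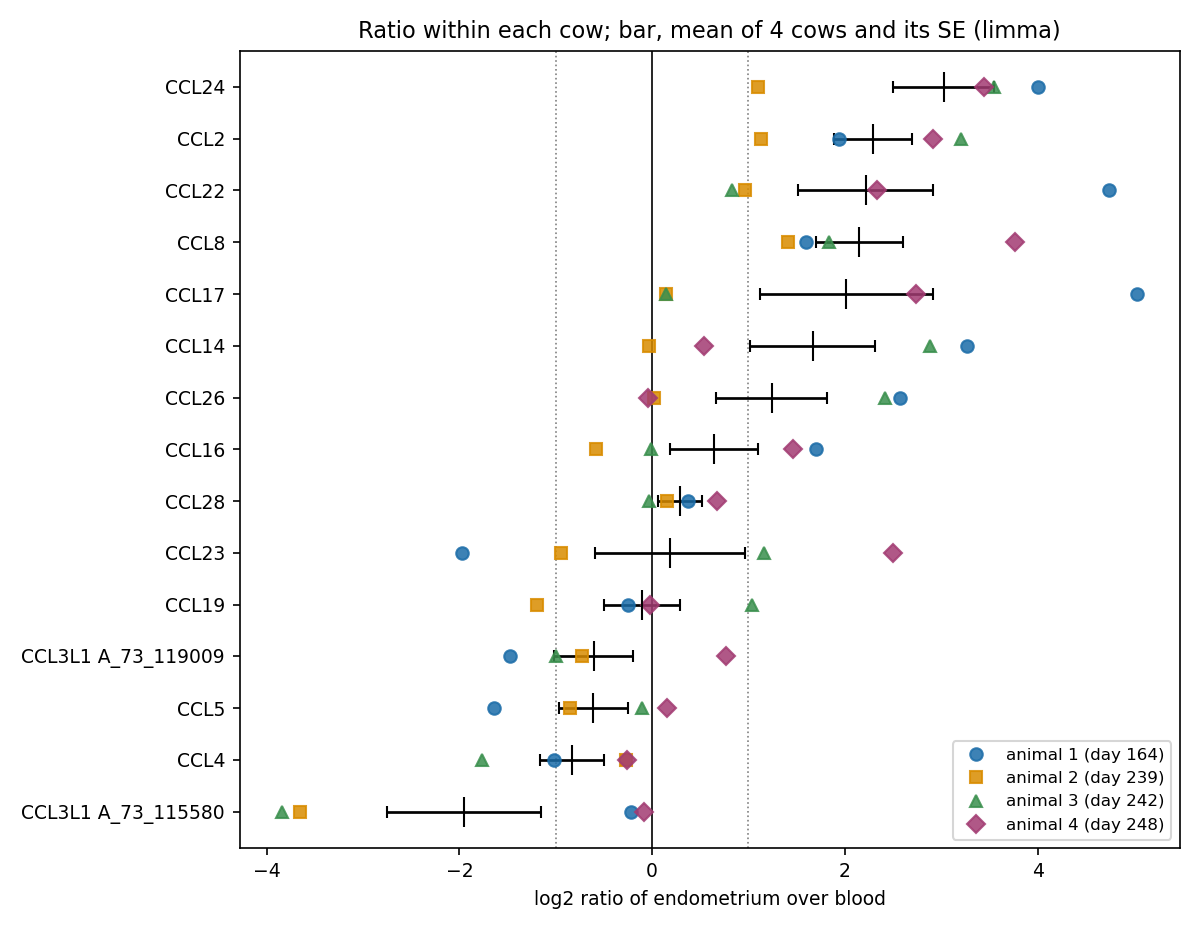
Log2 ratio of endometrium over blood (x axis) for each tested CC chemokine probe and for the CCL3L1 probes (y axis), with a symbol for each of the 4 cows and the mean with its SE from limma in black; dotted lines mark a 2-fold difference. CCL24, CCL2 and CCL8 lie above 1 in every cow, whereas CCL17 and CCL14 range from near 0 to over 3.

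On the array, the monocyte attractants CCL2 and CCL8 were higher in endometrial than in blood CD14+ cells of every animal. By quantitative PCR on RNA of 2 of these cows, the text of the paper reports no effect of tissue on CCL2. The table of the paper nevertheless prints a significant P there, at about equal amounts in the tissues. Additional cows of the paper gave no significant difference. The values printed for them place CCL2 higher in blood, although the paper labels the direction as that of the array. CCL2, the principal attractant of CCR2-bearing monocytes, had log2 intensities of 15.31, 9.31, 13.31 and 12.15 in the endometrium of animals 1 to 4 and of 13.37, 8.18, 10.11 and 9.23 in their blood. Within every animal the endometrium was the brighter, but the groups overlapped, since blood of animal 1 was brighter than endometrium of animals 2, 3 and 4. The means were 12.52 ± 2.51 in endometrium and 10.22 ± 2.24 in blood (SD, n = 4). The log2 ratio was 2.30 (SE 0.40, limma adjusted p = 0.242), or 4.91-fold. The 2 arrays of an animal differed by at most 0.36 in this ratio.

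CCL8, a relative of CCL2 that also attracts monocytes, had log2 intensities of 14.11, 8.97, 11.55 and 11.33 in endometrium and of 12.52, 7.55, 9.71 and 7.57 in blood. The means were 11.49 ± 2.10 in endometrium and 9.34 ± 2.35 in blood (SD, n = 4), and the groups overlapped. The log2 ratio was 2.15 (SE 0.45, limma adjusted p = 0.262), or 4.44-fold. Animal 4 had the highest ratio, 3.76, and the other animals had ratios of 1.59, 1.41 and 1.84. The animals had the same order for CCL2 and CCL8, from animal 1 down through 3 and 4 to animal 2, and they had it in both tissues, although animals 4 and 2 were nearly equal for CCL8 in blood. On the scanner's processed signal the ratios of CCL2 and CCL8 were 2.41 and 2.46, close to the values above.

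On the scanner's processed signal CCL22 had the highest ratio among the members, and on the main values CCL24 had it. This eosinophil attractant, also called eotaxin 2, had log2 intensities of 14.78, 7.25, 12.51 and 10.72 in endometrium and of 10.77, 6.15, 8.96 and 7.28 in blood. The uncorrected median spot intensities were 35941, 162, 9174 and 1843 in endometrium against 2479, 39.5, 215 and 138 in blood, over local backgrounds of 13.5 to 42.8. The blood of animal 2 was not well above background on either array. Animals 1, 3 and 4 had log2 ratios of 4.01, 3.55 and 3.44, and animal 2 had 1.10. The means were 11.32 ± 3.18 in endometrium and 8.29 ± 2.02 in blood (SD, n = 4), and the groups overlapped. The mean log2 ratio was 3.02 (SE 0.52, limma adjusted p = 0.242), or 8.14-fold. CCL24 also had the order of animals that CCL2 and CCL8 had, in both tissues. Without animal 2 its ratio was 3.67.

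CCL26, or eotaxin 3, acts on the same receptor as CCL24. It was bright in the endometrium of animals 1 and 3, at 9.58 and 9.42, against 7.01 and 7.00 in their blood, and was between 6.14 and 6.30 in both tissues of animals 2 and 4. Its ratios of 2.57, 0.02, 2.42 and -0.05 split the animals evenly, and the mean of 1.24 (SE 0.57) did not pass the unadjusted threshold (limma adjusted p = 0.370). The blood of animal 2 and the endometrium of animal 4 were not well above background on either array. The CCL26 ratios near 0 thus rest on values at background. CCL11, the original eotaxin, was well above background in both endometrial arrays of animal 1 and in only 1 blood channel, and was not tested.

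**Figure D2:**
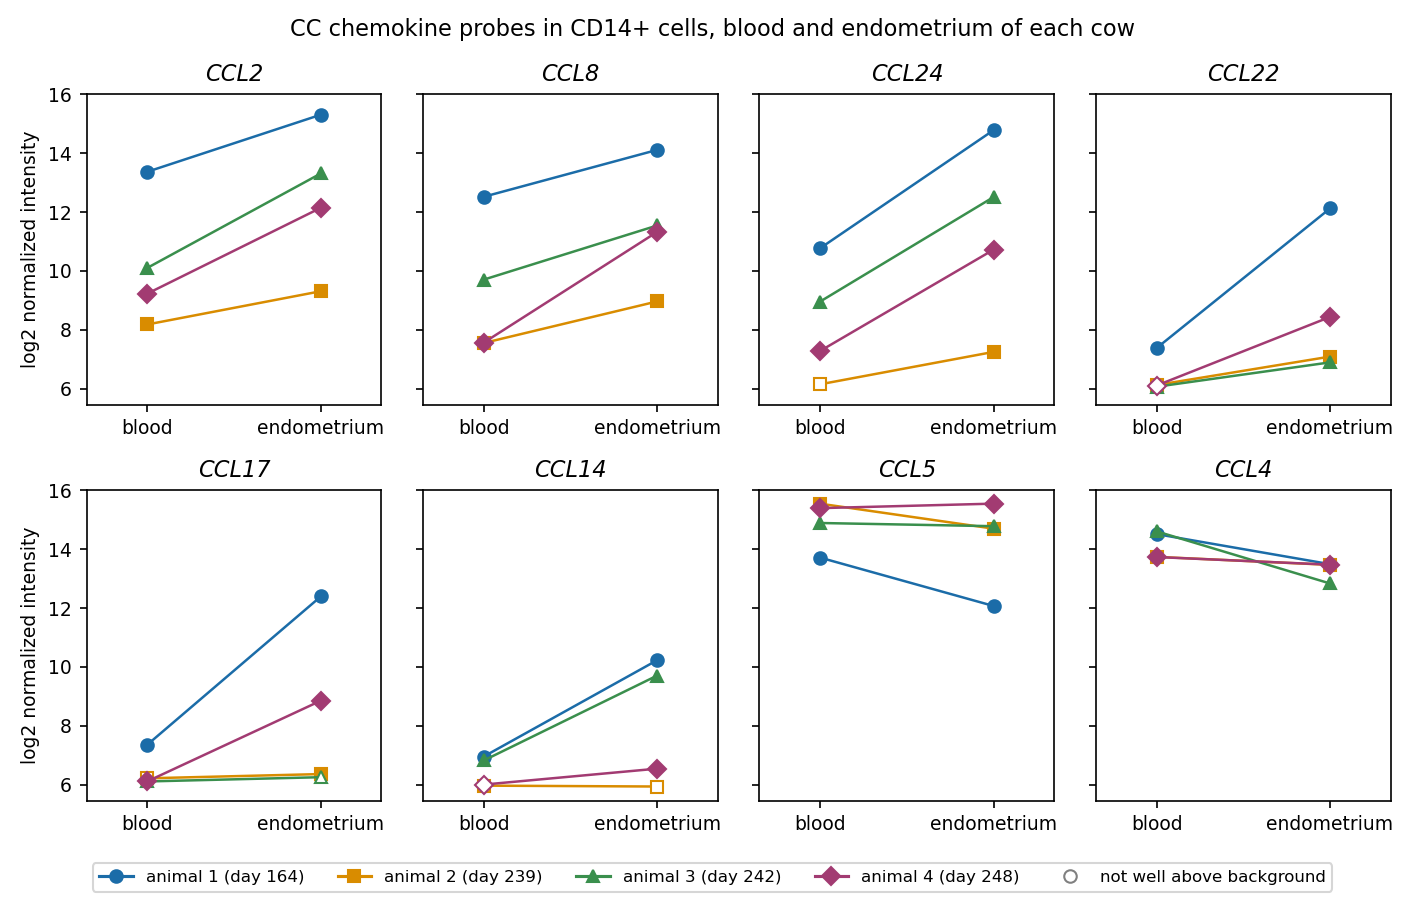
Log2 normalized intensity (y axis) of 8 CC chemokine probes in blood and endometrial CD14+ cells (x axis), with a line for each cow; open symbols were not well above background on either array of the cow. Heights cannot be compared between panels, since they belong to different probes. All 4 lines slope up for CCL2, CCL8, CCL24, CCL22 and CCL17 and all 4 slope down for CCL4. CCL17 in animal 3 was not well above background in either tissue.

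The CCR4 ligands CCL22 and CCL17 had a shared pattern over the animals. CCL22, known as macrophage-derived chemokine, had log2 intensities of 12.12, 7.09, 6.90 and 8.44 in endometrium and of 7.38, 6.13, 6.07 and 6.11 in blood. The spots had uncorrected medians of 8092, 135, 85.9 and 348 in endometrium and of 154, 38.8, 19.4 and 42.0 in blood, where local backgrounds were 14.5 to 30.3. Endometrial RNA was well above background in all 8 channels, whereas in blood only animal 1 was. The means were 8.64 ± 2.42 in endometrium and 6.42 ± 0.64 in blood (SD, n = 4). The endometrium was the brighter in 4 of 4 animals, with ratios of 4.74, 0.97, 0.83 and 2.33. The mean log2 ratio was 2.22 (SE 0.70, limma adjusted p = 0.275), or 4.65-fold. It was 1.37 without animal 1, and without animal 4, at 2.18, it did not pass the unadjusted threshold.

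CCL17, also called TARC, had log2 intensities of 12.39, 6.36, 6.26 and 8.85 in endometrium and of 7.36, 6.22, 6.11 and 6.12 in blood. Its ratios of 5.03 and 2.74 in animals 1 and 4 contrast with 0.14 in animal 2 and 0.14 in animal 3. In animal 3 neither tissue was well above background on either array, and in animal 2 the blood was not. The mean ratio of 2.01 (SE 0.90) did not pass the unadjusted threshold (limma adjusted p = 0.360). It was 1.01 without animal 1 and 2.64 without either animal 2 or animal 3. The highest ratio of CCL22 and of CCL17 was in animal 1 and the next in animal 4, and animal 1 was also the brightest blood sample for each.

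The 3 members whose ratio moved most between the main values and the processed signal were CCL22, CCL28 and CCL14. For CCL22 the log2 ratio was 2.98 with an offset of 10 in place of 50, and 4.86 on the scanner's processed signal (limma adjusted p = 0.0087). In the blood of animals 2, 3 and 4 CCL22 had 0 channels well above background, so the size of its ratio and this call rest on blood values at background in those animals. For CCL24 it was 3.41 with an offset of 10 (adjusted p = 0.0339) and 4.06, or 16.6-fold, on the processed signal (adjusted p = 0.0098). By construction, an offset added before the logarithm draws the ratios of dim spots towards 0. The adjusted p of CCL22 ranged from 0.0087 to 0.556 over the alternatives that kept the reading of the files, and that of CCL24 from 0.0098 to 0.578.

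**Figure D3:**
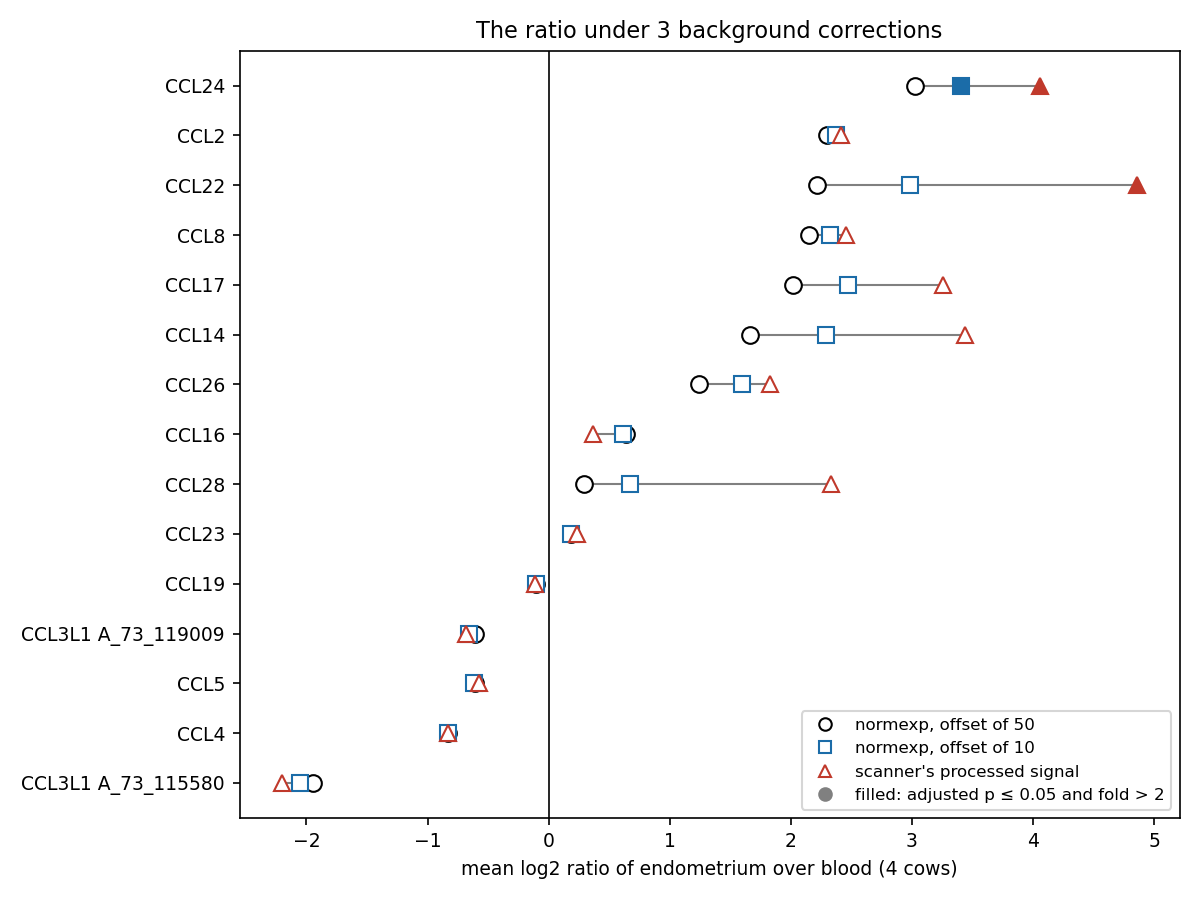
Mean log2 ratio of endometrium over blood over 4 cows (x axis) for each tested probe (y axis) under normexp with an offset of 50 or 10 and with the scanner's processed signal; filled symbols mark ratios past both limits of a call. CCL22 moves from 2.22 to 4.86 and CCL28 from 0.29 to 2.33, and bright probes such as CCL4 and CCL5 move by little.

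CCL14, CCL4, CCL5, CCL23 and CCL16 had no common direction. CCL14, a ligand of CCR1 with constitutive release into plasma in humans, had log2 intensities of 10.23, 5.94, 9.71 and 6.55 in endometrium and of 6.96, 5.97, 6.82 and 6.01 in blood. Its ratios were 3.27 and 2.88 in animals 1 and 3 and -0.03 and 0.54 in animals 2 and 4. In animal 2 neither tissue was well above background on either array, and in animal 4 the blood was not. The low ratios of CCL14 thus rest on values at background. On the authors' log2 values CCL14 in animal 4 was 6.78 in endometrium and 2.56 in blood, against 11.84 and 7.54 in animal 1. The mean of 1.67 (SE 0.65, limma adjusted p = 0.320) passed the unadjusted threshold by a narrow margin, and did not pass it without animal 1, at 1.13, or without animal 3, at 1.26. It also did not pass when a probe needed just 1 of its spots to be well above background. On the processed signal its ratio was 3.44.

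CCL4, or MIP-1β, was the only member with lower RNA in the endometrium of 4 of 4 animals, which 14.7% of all tested probes had. Its log2 intensities were 13.49, 13.47, 12.84 and 13.48 in endometrium and 14.51, 13.74, 14.61 and 13.73 in blood. It was also the only member whose groups did not overlap, with every blood sample above every endometrial sample, as in 3.03% of all tested probes. The log2 ratio of -0.83 (SE 0.33) did not reach a 2-fold difference and missed the unadjusted threshold (limma adjusted p = 0.329).

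CCL5, or RANTES, a product of T cells and natural killer cells as well as macrophages, had log2 intensities of 12.07, 14.70, 14.78 and 15.55 in endometrium and of 13.71, 15.55, 14.89 and 15.40 in blood. It was bright in all 16 channels, the groups overlapped, and the log2 ratio was -0.61 (SE 0.36, limma adjusted p = 0.455). Animal 1 had the lowest ratio, -1.64, and the only ratio above 0 was the 0.15 of animal 4. CCL5 was lowest in animal 1 in both tissues, where CCL2, CCL8, CCL22 and CCL24 were highest.

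CCL23, an attractant of monocytes and resting T cells, had log2 intensities of 13.47, 10.31, 13.29 and 13.82 in endometrium and of 15.45, 11.25, 12.12 and 11.32 in blood. It was higher in blood in animals 1 and 2, with ratios of -1.98 and -0.95, and higher in endometrium in animals 3 and 4, with 1.16 and 2.50. Its mean log2 ratio of 0.18 (SE 0.78, adjusted p = 0.944) is therefore the mean of opposite values, and it was -0.14 without animal 3 and -0.59 without animal 4. CCL16, a chemokine of the liver in humans, had ratios of 1.70 and 1.46 in animals 1 and 4 and of -0.59 and -0.01 in animals 2 and 3, with a mean of 0.64 (SE 0.46, adjusted p = 0.534). In animal 3 its endometrium was not well above background on either array. On the authors' log2 values CCL16 in animal 2 was 4.83 in endometrium and 7.27 in blood.

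CCL3L1 belongs with CCL4 among the MIP-1 chemokines and is named CCL3 in the current reference table. It falls outside the name rule, and its probes disagreed in size. Probe A_73_115580 was lower in endometrium in 4 of 4 animals, with log2 intensities of 6.46, 8.70, 9.38 and 12.62 there and of 6.68, 12.36, 13.21 and 12.70 in blood. The ratio was -3.66 in animal 2 and -3.84 in animal 3 and near 0 in the others, with a mean of -1.95 (SE 0.80, limma adjusted p = 0.336). The mean of probe A_73_119009 was -0.61 (SE 0.41, adjusted p = 0.511), with the endometrium of animal 4 above its blood. In the blood of animal 1 it was at its brightest, 12.01, where the other probe had its dimmest blood sample, 6.68.

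CCL19, CCL21, CCL28, CCL20 and CCL25 are described next. CCL19, a ligand of CCR7, had log2 intensities of 9.87, 9.54, 10.45 and 9.99 in endometrium and of 10.12, 10.73, 9.41 and 10.01 in blood, with a ratio of -0.11 (SE 0.39, adjusted p = 0.933). Its ratios of -0.25, -1.19, 1.04 and -0.02 in animals 1 to 4 exceeded 2-fold in opposite directions in animals 2 and 3. It was the member whose 2 arrays disagreed most, by a median of 0.80. In animals 1, 2 and 4 the array with the endometrium in Cy5 gave ratios of 0.17, -0.78 and 0.37 and the array with swapped dyes gave -0.67, -1.60 and -0.42. In animal 3, without a swap, the ratios were 1.06 and 1.02. Dye and slide changed together in those 3 animals, and the mean of animal 3 cannot cancel a difference between dyes. The 2 arrays of CCL5 also differed the same way, with 0.33 against -0.02 in animal 4, and by a median of 0.37.

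CCL21, the other ligand of CCR7, was not well above background in any blood channel and was so in endometrium only in animal 1, so no fold between the tissues is given. CCL28, a mucosal chemokine that acts through CCR10, was well above background in 5 endometrial and 0 blood channels, with ratios of 0.37, 0.16, -0.03 and 0.67 in animals 1 to 4. It entered the test through the endometrium alone, and since no blood sample exceeded background its ratio of 0.29 (SE 0.23, adjusted p = 0.564) does not measure a fold. CCL20, a ligand of CCR6, was well above background in both blood arrays of animal 1, at 7.88 against 5.94 in its endometrium, and lay between 6.09 and 6.36 in the other 6 samples. CCL25, a chemokine of thymus and gut, was well above background in 2 endometrial and 1 blood channels and lay between 6.01 and 6.17 in all 8 samples.

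Counted by animal, the direction of the family was not uniform. The median log2 ratio of the 13 tested members was 1.70, 0.02, 1.04 and 1.46 in animals 1 to 4, with 9, 7, 9 and 10 of the 13 probes higher in endometrium. Each median is the value of a single probe, CCL16 in animals 1 and 4, CCL26 in animal 2 and CCL19 in animal 3. In animal 2 CCL26 was not well above background in blood. The ratio of CCL19 differed between the arrays of the dye swaps, and animal 3 had no swap. The medians of all tested probes in the same animals were -0.09, -0.03, -0.02 and -0.03. Of the 13 members, 5 (CCL2, CCL8, CCL17, CCL22 and CCL24) were higher in endometrium in 4 of 4 animals, against 10.2% of all tested probes. For CCL17 the direction in animal 3 was not measured, since neither tissue was well above background there. CCL2, CCL8 and CCL24 were over 2-fold higher in each of the 4 animals, which 1.02% of all probes were. No member had every endometrial sample above every blood sample, which 2.41% of all probes had. On the main values animal 2, at day 239, had the smallest ratio of CCL2, CCL8, CCL14 and CCL24. In animal 2, CCL14 in both tissues and CCL24 in blood were not well above background, so these ratios rest on background values. On the authors' log2 values animal 2 was not the smallest for CCL8 or CCL24. CCL24 was 8.29 in endometrium and 4.13 in blood of animal 2, against 14.31 and 10.56 in animal 3. CCL8 was 10.57 and 8.62 in animal 2, against 15.94 and 14.32 in animal 1.

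Neighbouring genes were compared next, from the gene order of the reference assembly ARS-UCD2.0. CCL8, CCL11 and CCL2 follow each other there, and CCL8 and CCL2 had ratios of 2.15 and 2.30. CCL22 and CCL17 have 1 gene between them and had ratios of 2.22 and 2.01, each highest in animals 1 and 4. CCL26 lies next to CCL24, and CCL26 was near 0 in animal 4, where CCL24 was at 3.44. The endometrium of animal 4 was not well above background for CCL26. CCL14, CCL16 and CCL5 also follow each other and had ratios of 1.67, 0.64 and -0.61. CCL4 and CCL3 have 1 gene between them and were each lower in endometrium on average. No test was made of a relation between order and ratio.

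The receptors of these chemokines were counted in the same way. Of 17 listed symbols, 14 were on the array and 12 were tested, of which 0 passed the unadjusted threshold higher in endometrium and 1 passed it higher in blood, counts near the 5.28% and 5.11% of all tested probes. Their median log2 ratio was -0.21. CCR7, which guides lymphocytes and dendritic cells to lymph nodes and binds CCL19 and CCL21, had the lowest, -2.94 (SE 0.96, limma adjusted p = 0.278), with -1.92, -4.65, -5.31 and 0.13 in the 4 animals. CCR3, the receptor of CCL24 and CCL26, was lower in endometrium in 4 of 4 animals with a mean of -0.85 (SE 0.30, adjusted p = 0.294), and was called on the processed signal at -4.31 (adjusted p = 0.0373). It was well above background in 2 endometrial and 8 blood channels. The highest ratios of receptors were 0.51 for CCBP2, a decoy receptor that takes up inflammatory CC chemokines, and 0.47 for CCR2, the receptor of CCL2, and neither passed the unadjusted threshold.

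Chemokines of the other classes had members in both directions, with 2 of 12 tested passing the unadjusted threshold towards endometrium and 2 towards blood. Of all tested probes, 5.28% and 5.11% did so. CXCL14, an attractant of monocytes and dendritic cells, was at 3.26 (SE 0.68, adjusted p = 0.262) and XCL1, or lymphotactin, at 1.32. The neutrophil attractants CXCL5, named CXCL6 on the array, and CXCL8 had ratios of -2.55 and -1.98. The median was -0.28.

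Of 13 tested cytokines known to induce CC chemokines, 0 passed the unadjusted threshold higher in endometrium and 1, IL1B, passed it higher in blood, again near the 5.28% and 5.11% of all probes. The ratio of IL1B was -2.00 (SE 0.72, limma adjusted p = 0.297). IL4, which induces CCL17, CCL22 and CCL24 in macrophages, had a ratio of -0.10 and IL13 one of 0.52, and these were chosen for that role after their values were seen. Of 16 tested transcription factors upstream of CC chemokines, 3 passed towards endometrium and 5 towards blood. The former were KLF4, with 2.10, and the AP-1 subunits JUN, with 2.04, and FOS, with 2.01. Among the latter were IRF5, with -1.57, and the NF-κB subunits RELB, with -1.46, and RELA, with -1.34. Their list had a median of -0.72.

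Genes of alternative activation had a median log2 ratio of 1.12, and of 0.96 on the processed signal, where that of the CC chemokines was 2.33. That 2.33 is the value of CCL28, which had 0 blood channels well above background. Of 10 alternative activation genes tested, 4 passed the unadjusted threshold higher in endometrium and 0 higher in blood. Among the 4 were the scavenger receptor MSR1 (3.01, limma adjusted p = 0.0814), the selenium carrier SELENOP (2.51) and the folate receptor FOLR2 (2.36). Genes of classical activation had a median of -1.02, and of 12 tested 0 passed towards endometrium and 5 towards blood. PTGS2, which makes prostaglandins, had a ratio of -2.74, the costimulatory receptor CD40 one of -1.88 and IDO1, which breaks down tryptophan, one of -1.36. Against the 5.28% and 5.11% of all probes in each direction, these are counts of genes that were listed with earlier results of these data known.

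**Figure D4:**
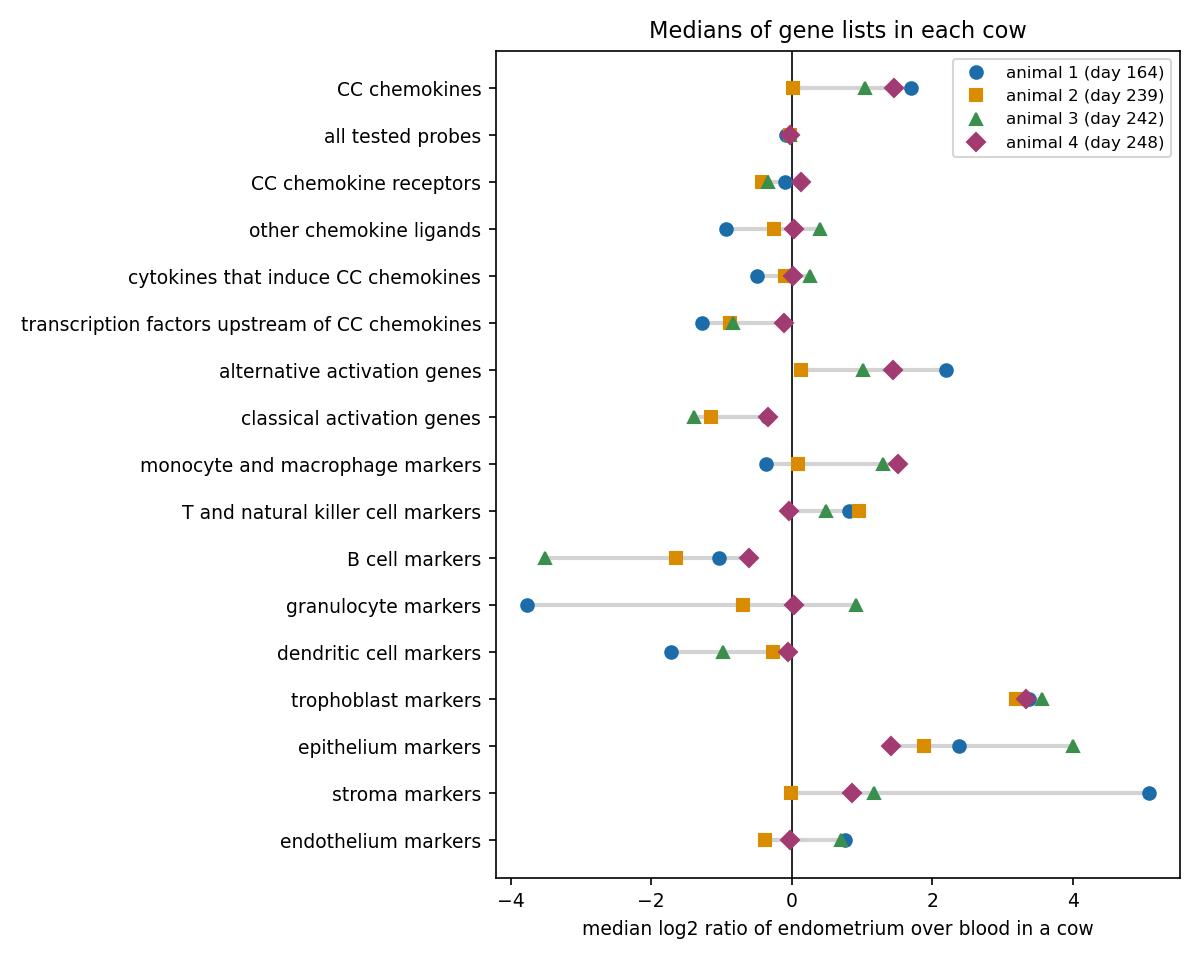
Median log2 ratio of endometrium over blood in each cow (x axis) for the CC chemokines, all tested probes, and lists of related genes and of cell type markers (y axis). The medians of the CC chemokines run from 0.02 to 1.70, those of the stroma markers from -0.01 to 5.08, and those of the trophoblast markers from 3.20 to 3.57. The 0.02 is the value of CCL26 in animal 2, which was not well above background in blood.

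Markers of the sorted cells and of other cells of the tissue are given beside these results. CD14 had a log2 ratio of -0.33 and CD68, a macrophage marker, one of 1.38. Of 13 tested monocyte and macrophage markers, 5 passed the unadjusted threshold towards endometrium and 1 towards blood, against 5.28% and 5.11% of all tested probes. AIF1, with 2.85, and CSF1R, with 2.76, had the largest ratios, and LYZ was dark, that is not well above background, in all 16 channels. The log2 of the summed intensities of these markers was 13.68 to 16.84 in endometrium and 12.55 to 17.13 in blood.

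Trophoblast markers had the highest median, 3.51, with 6 of 10 tested passing higher in endometrium, 5 of them called, and 1 passing higher in blood. Of all tested probes, 5.28% passed higher in endometrium, 0.0661% were called so, and 5.11% passed higher in blood. PAG10, a pregnancy-associated glycoprotein, had a ratio of 4.64 and PRP6, a prolactin-related protein, one of 4.36, and PAG2, TKDP1 and GCM1 were dark in every channel. The summed level of the trophoblast markers was 13.81 to 15.54 in endometrium and 10.53 to 11.68 in blood. Epithelium markers passed higher in endometrium in 8 of 12, and their largest ratios were 6.10 for SERPINA14, or uterine serpin, and 3.24 for CLDN3. Their summed level was 13.67 to 16.81 in endometrium and 10.48 to 11.88 in blood. No epithelium or stroma marker was dark in every channel.

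Stroma markers passed higher in endometrium in 3 of 11, against 5.28% of all tested probes. Their largest ratios were 3.05 for DCN and 2.51 for COL1A1. Their summed level was 11.32 to 16.80 in endometrium and 11.60 to 15.01 in blood. The medians of the stroma markers in animals 1 to 4 were 5.08, -0.01, 1.17 and 0.86. Endothelium markers passed higher in endometrium in 1 of 9, a count near the 5.28% of all tested probes. Their largest ratios were 1.72 for VWF and 1.45 for EMCN. Their summed level was 10.85 to 12.99 in endometrium and 10.64 to 11.22 in blood. The part of these cells in the ratios of the CC chemokines was not tested.

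T and natural killer cell markers passed higher in endometrium in 5 of 15, against 5.28% of all tested probes. Their summed level was 15.21 to 17.26 in endometrium and 11.86 to 15.83 in blood. A probe named BDMD1 in the files and GZMB in the reference table had a ratio of 3.23 and NKG7 one of 1.59. B cell markers passed higher in blood in 5 of 8, against 5.11% of all tested probes. Their ratios of largest size were -2.14 for CD22 and -1.83 for MS4A1. Their summed level was 11.72 to 14.02 in endometrium and 12.73 to 15.25 in blood. Granulocyte markers passed higher in blood in 1 of 5, against the same 5.11%. Their ratios of largest size were -1.30 for S100A8 and -1.08 for CXCR1. Their summed level was 9.18 to 13.55 in endometrium and 11.15 to 17.09 in blood. Dendritic cell markers passed higher in blood in 1 of 8, a count near that 5.11%. Their ratios of largest size were -2.94 for CCR7 and -2.02 for CD83, and CLEC9A was dark in every channel. Their summed level was 12.48 to 14.54 in endometrium and 14.57 to 16.08 in blood. The part of these cells was not tested either.

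The probes with the most similar pattern were found from the root mean square difference of log2 intensities over the 8 samples, 4 animals by 2 tissues, after each probe was centred on its mean. For CCL2 these were CD163, the haemoglobin scavenger receptor (0.528), RNASE6 (0.636) and a probe described as ANG that the reference table names RNASE4 (0.664). For CCL8 they were RNASE6 (0.519), CYP27A1 (0.603) and CSF1R (0.641). CCL22 was nearest to ASPA (0.310), COLEC12 (0.397) and PROS1 (0.416), and CCL24 to SPP1, or osteopontin (0.665), MRC2 (0.847) and MFAP5 (0.855). CCL5 was nearest to ZNF217 (0.369), SIGIRR (0.389) and PPIL4 (0.398). RNASE6 was near both CCL2 and CCL8, which had the same order of animals, and the neighbours of CCL5 had ratios below 0, as it did. The difference was taken over both tissues, so it favours probes with ratios like that of the chemokine by construction. Neither likeness is therefore a separate result.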

How the data were processed

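RNA of CD14+ cells from endometrium and blood of 4 cows was hybridized to 8 Agilent arrays. Scanner files deposited by the authors hold the intensity of each spot and its local background in both dyes, a processed intensity, and flags. They also deposited a table of log2 values, normalized by lowess and by quantiles over the 16 channels. The files carry Feature Extraction 10.5.1.1, and the processing notes 9.5. Both files of an array were identical. The 16 columns of log2 values matched, at 100% of probes, the labeled dye in the file that belongs by its listing to the animal's other array, not its own. The scanner files were exchanged accordingly, a choice made after the values were seen.

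Spot medians were corrected with normexp (offset 50) in limma 3.58.1 (R 4.3.3, statmod 1.5.0), normalized by loess and then by quantiles, and averaged over the spots of a probe. Control spots and 3 to 20 outlier spots an array were left out. No spot was saturated, 65.2% to 82.9% of spots in a channel exceeded background clearly, and precision is limited by the number of animals. The ratio of an animal was the mean of its 2 arrays and was tested against 0 over 4 animals with lmFit and eBayes, paired by animal as in the methods, and fits were tested on simulated data. Both tissues of an animal deviated together from their means (r = 0.618, 0.364, 0.209 and 0.465). Testing required all spots of a probe to be flagged well above background in 4 or more of a tissue's 8 channels. This reading was taken after results with any of its spots had been seen.

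Members and lists were chosen with earlier results of these data known. All probes of the name rule are named. Other genes named are the 2 receptors with the largest ratio in each direction, up to 3 genes in each direction of the other pathway lists among those past the unadjusted threshold, CD14, CD68 and the 2 markers of each list with the largest ratio, and the 3 probes most like each of 5 chemokines. Of several probes of a listed gene the brightest tested was used, so other probes of it are not shown. Names of 3519 probes were updated by accession and of 9987 by gene identifier from RefSeq genes of ARS-UCD2.0.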

Additional observations from a re-analysis of the deposited data

Results flagged for a closer look

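Of 30 sets of 4 samples (15 tested probes in 2 tissues), 5 had a sample far from the others by Dixon's criterion at 95%, where chance flags about 1 in 20. CCL4 was low in the endometrium of animal 3, with a log2 intensity of 12.84 against 13.47 in the nearest sample. CCL17 in the blood of animal 1 was high, at 7.36 against 6.22, where the blood of animals 2 and 3 was not well above background. CCL22 in the same sample was high, at 7.38 against 6.13, where the blood of animals 2, 3 and 4 was not well above background. The offset draws such dim values together, so the rate of 1 in 20 does not hold for these sets of CCL17 and CCL22. CCL23 was low in the endometrium of animal 2, at 10.31 against 13.29. Probe A_73_115580 of CCL3L1 was low in the blood of animal 1, at 6.68 against 12.36. Of the 5, 3 were in the blood of animal 1, the cow at day 164.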

How the results depend on the processing

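The count of CC chemokines called after adjustment, 0, was 2 with the scanner's processed signal, 2 with the authors' value table, 1 with an offset of 10 (CCL24), and 3 (CCL2, CCL8 and CCL24) when the 8 arrays were fitted with dye as a term and the animal as random block. The count passing the unadjusted threshold, 5, was 0 without the pairing by animal (no replicate block), and 3 in the methods' analysis of variance, which called 0 after Benjamini-Hochberg adjustment. Leaving out an animal gave 0 to 0 called, 4 to 6 passing, and a median of 0.86 to 1.65. With each scanner file read as the replicate it is attached to, 0 passed and the median was -0.31, since the direction then turns in animals 1, 2 and 4. With any spot of a probe well above background, 14 members were tested, 4 passed and the median was 0.94. These last readings were chosen after the values were seen. Over all probes, 11 were called towards endometrium and 0 towards blood. The count towards endometrium was 204 with the processed signal (20 towards blood), 88 with an offset of 10 (1 towards blood), 44 with a filter of 8 channels, 20 on slide 2, 9 with any spot, 5 each with loess alone, no filter and slide 1, 4 without pairing, and 0 in the analysis of variance and without any 1 animal, and the fit of 8 arrays gave 455 and 337. The processed signal moved the median of the members from 1.24 to 2.33, the latter being the value of CCL28, with 0 blood channels well above background, and that of all probes from -0.02 to -0.14. CCL19, at -0.11, was 0.068 with loess alone, 0.20 on slide 1, and -0.49 to 0.26 with an animal left out. CCL23, at 0.18, was -0.59 to 0.90 with an animal left out. CCL22 and CCL28, dim in blood, moved by over 2 on the log2 scale between normexp and the processed signal.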
